A study of Mus musculus with 15 samples.

Results

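Adtrp, Kcnj9, Fn3k and Tcp11l2 were chosen for having some of the largest falls in microglia 1 day after a dose of ATV:4D9, 4 genes of 32372 in the table and of 14260 tested. The values that chose them were their log2 fold changes at ATV:4D9 day 1 against ATV:RSV. The choice was limited to genes called lower there, with at least 10 UMIs in all 6 mice. It also required groups that did not overlap and a symbol other than a predicted gene's. Everything from that comparison, the lack of overlap included, is thus given for them as a description with no test. Microglia of cortex and hippocampus were taken from male hTfR KI mice (C57BL/6J background, 3.5 months old), in which the apical domain of the transferrin receptor is human, and were enriched with CD45 beads before single-cell 3′ RNA sequencing with unique molecular identifiers (UMIs). Each mouse received 1 dose of 10 mg/kg. ATV:4D9 is an antibody against TREM2, an activating receptor of microglia, on an Fc that binds the transferrin receptor for transport across brain vessels. ATV:RSV, with the same vehicle, served as the control antibody. ATV:RSV mice were sampled at day 1 and ATV:4D9 mice at day 1, 7, 14 or 28, with 3 mice per group, and each of 3 batches held 1 mouse from every group. All mice carried the hTfR allele and each group analysed here received an antibody, so the day 1 difference is between antibodies in that strain. ATV:RSV mice were taken at day 1 alone, so a later ATV:4D9 day set against ATV:RSV differs in antibody and in day at once, which cannot be told apart.

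The 15 mice gave 5667 to 7596 cells and 32341960 to 70307384 UMIs each, and all 4 genes passed the filter on low counts. Median UMIs per cell were 8201.5 to 8995.5 at ATV:4D9 day 1 and 4975 to 5750 in ATV:RSV. The 8 microglia markers, among them P2ry12 and Cx3cr1, were detected in every group, and their summed level was 20647 to 22152 CPM (UMIs as a rate of all UMIs, here without TMM scaling) in ATV:RSV and 13894 to 15475 at ATV:4D9 day 1, with 7 of 8 called lower, as were 34.6% of all genes tested. Cells with at least 3 markers of another cell type made up 1.90% of cells, and 2579 cells shared a barcode with a cell of another mouse.

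The 4 genes belong to different gene families. Adtrp encodes a membrane hydrolase that cleaves fatty acid esters of hydroxy fatty acids, a class of signalling lipids, and its full name refers to regulation of tissue factor pathway inhibitor, the brake on the start of blood clotting. Kcnj9 encodes GIRK3, a subunit of potassium channels that open when a Gi-coupled receptor releases G protein beta-gamma subunits, and that are best known for slowing the firing of neurons. Fn3k encodes fructosamine-3-kinase, which removes sugar that has attached to lysines of proteins, and is well known from red blood cells. Tcp11l2 belongs to the TCP11 family.

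The genes lie on 4 chromosomes. In mm10 with the GENCODE M21 annotation, all are protein coding: Kcnj9 (ENSMUSG00000038026.12) on chromosome 1 at 172320501 to 172329318 on the minus strand, Tcp11l2 (ENSMUSG00000020034.7) on chromosome 10 at 84576626 to 84614359 on the plus strand, Fn3k (ENSMUSG00000025175.12) on chromosome 11 at 121434913 to 121450491 on the plus strand, and Adtrp (ENSMUSG00000058022.14) on chromosome 13 at 41763148 to 41847684 on the minus strand. Antisense genes overlap Adtrp (1700061E18Rik and Gm28564) and Kcnj9 (Gm36937), and whether the counting used the strand is not given in the sources used here.

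The promoters of 3 of the 4 genes are shown for sequence context. The genes were chosen for falling at day 1, so nothing is read from what the windows share. Each runs from 250 bases before to 50 bases after a RefSeq start (GRCm38.p6), 5′ to 3′, and capitals mark the motif matches found on either strand. The 9 motifs searched were PU.1 (GAGGAAGT), AP-1 (TGANTCA), E-box (CACGTG), forkhead (TGTTTAC), SMAD palindrome (GTCTAGAC), MEF2 core (TATTTTTA), E2F (TTTCGCGC), CRE (TGACGTCA) and TATA box (TATAAA).
Adtrp, chr13:41847567-41847866, minus strand: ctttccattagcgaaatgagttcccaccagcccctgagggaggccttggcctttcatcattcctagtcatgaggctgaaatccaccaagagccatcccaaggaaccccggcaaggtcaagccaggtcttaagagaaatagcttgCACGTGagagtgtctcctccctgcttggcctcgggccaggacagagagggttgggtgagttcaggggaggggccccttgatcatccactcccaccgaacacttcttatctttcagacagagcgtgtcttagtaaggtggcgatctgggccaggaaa
Kcnj9, chr1:172329273-172329572, minus strand: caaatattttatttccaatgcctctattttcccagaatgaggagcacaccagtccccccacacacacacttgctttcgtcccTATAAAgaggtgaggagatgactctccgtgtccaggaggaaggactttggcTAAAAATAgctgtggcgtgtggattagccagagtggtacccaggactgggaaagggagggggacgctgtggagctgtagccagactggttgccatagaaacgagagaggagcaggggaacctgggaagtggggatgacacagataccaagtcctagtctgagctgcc
Tcp11l2, chr10:84576697-84576996, plus strand: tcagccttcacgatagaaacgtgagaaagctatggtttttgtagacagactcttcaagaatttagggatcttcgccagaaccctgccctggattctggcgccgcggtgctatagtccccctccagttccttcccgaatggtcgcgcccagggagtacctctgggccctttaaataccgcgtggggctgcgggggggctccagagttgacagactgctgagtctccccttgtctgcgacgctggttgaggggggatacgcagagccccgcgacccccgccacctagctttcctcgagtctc

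No motif was shared by the 3 promoters. The Adtrp window held an E-box, found in 7.15% of all 32851 promoters. RefSeq gives a second Adtrp start, whose window overlaps the one shown and held the same E-box and a further one. The Kcnj9 window held the MEF2 core, found in 2.72% of all promoters, and a TATA box sequence 168 bases before the start, found in 13.6%. The Tcp11l2 window held no match to these letters. GC content was 55.0% for Adtrp, 52.3% for Kcnj9 and 59.0% for Tcp11l2, against a median of 52.7% over all promoters.

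Adtrp fell from 183, 179 and 214 UMIs in the ATV:RSV mice to 24, 21 and 21 UMIs in the ATV:4D9 day 1 mice. In CPM, with the library size scaled by TMM, these were 3.74, 4.32 and 5.11 against 0.377, 0.343 and 0.449. The fitted log2 fold change was -3.47 (SE 0.277), an 11.1-fold fall. The groups did not overlap, as the choice required. The same was true in this direction of 35.9% of all genes tested, while 34.6% of genes were called lower.

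Kcnj9 had 213, 173 and 150 UMIs in ATV:RSV mice and 35, 16 and 18 at ATV:4D9 day 1. This was 4.35, 4.17 and 3.58 CPM against 0.550, 0.261 and 0.385 CPM, with a fitted log2 fold change of -3.37 (SE 0.305). The day 1 mouse of batch 1 held the highest of the 3 treated values and still lay below every ATV:RSV mouse, as the choice required.

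Fn3k had 85, 82 and 105 UMIs against 16, 11 and 11, or 1.74, 1.98 and 2.51 CPM against 0.251, 0.180 and 0.235 CPM. The fitted log2 fold change was -3.17 (SE 0.281). With 11 to 16 UMIs per treated mouse the day 1 level of Fn3k rested on few molecules.

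Tcp11l2 had 1118, 920 and 931 UMIs against 199, 119 and 135, or 22.9, 22.2 and 22.2 CPM against 3.13, 1.94 and 2.89 CPM. Its fitted log2 fold change of -3.11 had the smallest SE of the 4, at 0.126. All 3 treated mice lay below all 3 ATV:RSV mice, as the choice required, and the mouse of batch 2 was the lowest.

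**Figure D1:**
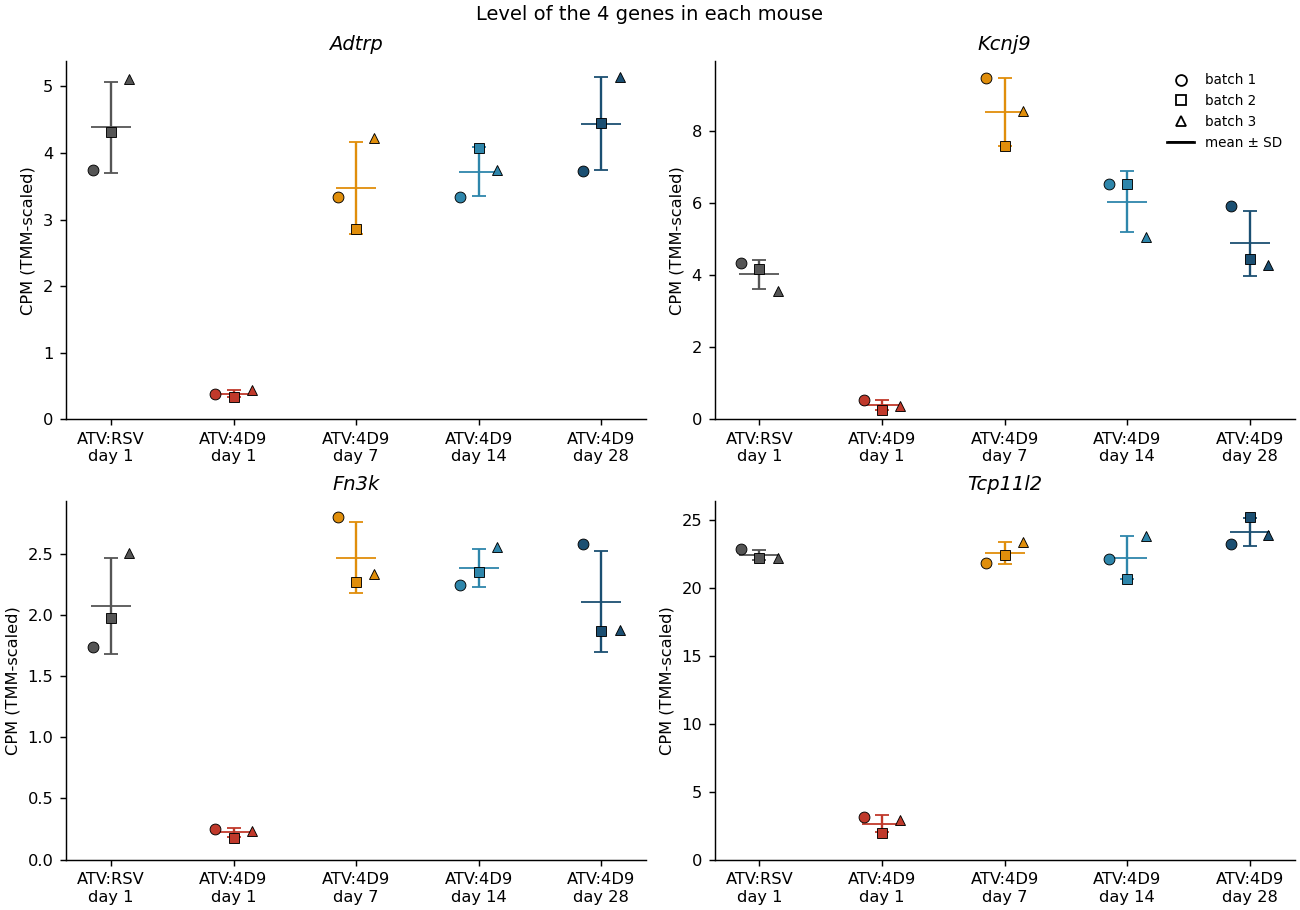
Level of each gene in CPM (vertical axis, from 0) in each mouse of the 5 groups (horizontal axis), with the batch as the symbol and the mean ± SD over 3 mice as bars. All 3 ATV:4D9 day 1 mice lie below every other mouse for each gene, as in 28.2% of all genes. Lying below the ATV:RSV mice was required by the choice. The 3 day 7 mice lie above the ATV:RSV mice for Kcnj9, as in 11% of all genes.

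Among the 3841 genes called lower at day 1 with 10 or more UMIs in all 6 mice, groups that did not overlap and a symbol other than a predicted gene's, the order of day 1 log2 fold changes was Adtrp, Kcnj9, Mycl at -3.34, Fn3k, Tcp11l2, then Frat1 at -2.79 and Eps8l1 at -2.73. Mycl encodes a MYC-family transcription factor and Frat1 an inhibitor of GSK3. A further 11 genes had a log2 fold change at least as low as that of Tcp11l2 but did not meet the conditions, and 6 of these had under 10 UMIs in a mouse.

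The falls were smaller in UMIs per cell than in CPM, since each cell gave more UMIs in total at ATV:4D9 day 1. Per 1000 cells, Adtrp went from 28.5 ± 3.92 to 3.24 ± 0.339 UMIs (mean ± SD, n = 3 per group), Kcnj9 from 26.3 ± 3.68 to 3.37 ± 1.41, Fn3k from 13.5 ± 2.37 to 1.86 ± 0.376 and Tcp11l2 from 146 ± 12.1 to 22.2 ± 5.88. The folds were then 8.77, 7.82, 7.23 and 6.57.

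No cell held more than 5 UMIs of any of these transcripts in ATV:RSV or ATV:4D9 day 1 mice, and the share of cells with at least 1 UMI was compared after each cell was thinned at random to 3385 UMIs. At this depth Tcp11l2 was found in 8.11%, 8.29% and 7.46% of ATV:RSV cells and in 0.965%, 0.715% and 1.22% of ATV:4D9 day 1 cells. Without thinning the shares were 14.7%, 12.4% and 13.2% against 2.71%, 1.59% and 2.18%. The thinned share was 1.28% to 1.87% against 0.1001% to 0.161% for Adtrp, 1.26% to 1.45% against 0.1001% to 0.161% for Kcnj9 and 0.562% to 0.824% against 0.0572% to 0.117% for Fn3k. Unthinned shares of the ATV:RSV and ATV:4D9 day 1 mice averaged 2.70% and 0.320% for Adtrp, 2.42% and 0.337% for Kcnj9, and 1.28% and 0.175% for Fn3k.

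The share also differed between cells of like depth without thinning. In ATV:RSV mice the share of cells with a Tcp11l2 UMI rose with depth, from a mean of 9.10% in cells with 2000 to 4000 UMIs to 22.1% in cells with 10000 to 14000 UMIs. At ATV:4D9 day 1 the corresponding means were 2.59% and 1.55%, but the ranges held different cells. Of the day 1 cells, 44.1% in the shallowest range and 0.775% in the deepest were in deposited clusters 0 and 1, where Tcp11l2 was higher than in cluster 2. Within cluster 2 alone, a split chosen after the values were seen, the day 1 share was 0.857% in the shallowest range, 1.98% in cells with 8000 to 10000 UMIs and 1.42% in the deepest. Adtrp went from 1.81% to 4.42% over the same range in ATV:RSV and from 0.329% to 0.363% at day 1, or from 0% to 0.346% within cluster 2. Kcnj9 went from 1.72% to 3.77% in ATV:RSV and from 0.188% to 0.208% at day 1, or from 0% to 0.210% within cluster 2.

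**Figure D2:**
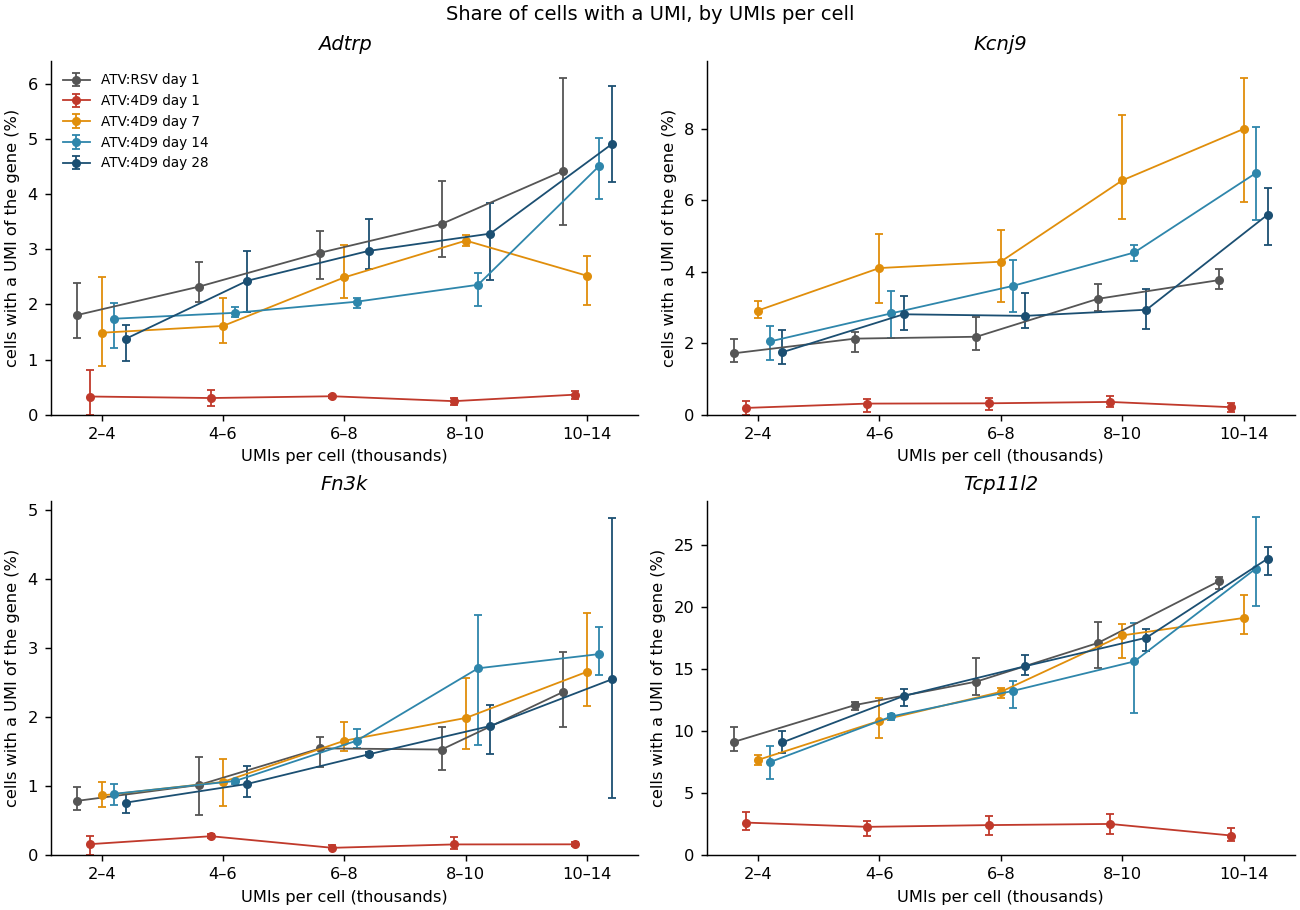
Mean share of cells with at least 1 UMI of each gene (vertical axis, percent) in ranges of UMIs per cell (horizontal axis), by group, with bars from the lowest to the highest of 3 mice. For Tcp11l2 the day 1 line goes from 2.59% in the shallowest to 1.55% in the deepest range, of which 44.1% and 0.775% of day 1 cells were in clusters 0 and 1, and the ATV:RSV line climbs from 9.10% to 22.1%.

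Within the 3 deposited clusters the levels are a description, with intervals for counting error only. At ATV:4D9 day 1, 18416 of 20459 cells were in cluster 2 and 945 and 1098 in clusters 0 and 1, while 339 of 20301 ATV:RSV cells were in cluster 2. The clusters were made from these same cells, and day 1 mice and other mice filled different clusters. Tcp11l2 in day 1 cells stood at 17.1 CPM of the UMIs within cluster 0, without TMM scaling (90 UMIs, exact 95% Poisson interval 13.8 to 21.02), 12.7 in cluster 1 (56 UMIs, 9.61 to 16.5) and 1.69 in cluster 2 (307 UMIs, 1.51 to 1.89). In ATV:RSV cells the levels were 23.3, 25.7 and 13.5. The day 1 level was thus 73.5% of the ATV:RSV level in cluster 0 (interval 58.8 to 90.8), 49.6% in cluster 1 (37.2 to 64.9) and 12.5% in cluster 2 (9.05 to 17.7). Clusters 0 and 1 held 9.99% of the day 1 cells and 32.2% of their Tcp11l2 UMIs.

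In the day 1 cells of clusters 0 and 1, Adtrp and Kcnj9 rested on few UMIs. Adtrp was at 0.760 CPM in cluster 0 (4 UMIs) and 1.59 in cluster 1 (7 UMIs), against 4.33 and 5.40 in ATV:RSV. Kcnj9 was at 0.9498 (5 UMIs) and 1.59 (7 UMIs), against 4.24 and 4.61. The intervals of the ratio to ATV:RSV reached up to 45.4% for Adtrp and 52.7% for Kcnj9 in cluster 0, and up to 61.8% and 72.7% in cluster 1. By mouse, Adtrp in the day 1 cells of cluster 1 was at 1.20, 0.763 and 5.12 CPM (3, 1 and 3 UMIs), and the highest lay within the ATV:RSV range of 4.42 to 6.48. Leaving out day 1 replicate 3 gave 1.05 for Adtrp, and leaving out day 1 replicate 1 gave 1.05 for Kcnj9, a choice made after the values were seen. In cluster 2 the day 1 cells gave 55 Adtrp and 57 Kcnj9 UMIs, or 0.303 and 0.314 CPM in turn, and the 339 ATV:RSV cells gave 8 and 5.

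Fn3k in the day 1 cells of cluster 0 was at 1.33 CPM from 7 UMIs, and the interval of its ratio ran from 26.1% to 139% of the ATV:RSV level. In cluster 1 it was at 0.682 CPM from 3 UMIs, against 2.49 in ATV:RSV, with an interval of the ratio of 5.55% to 82.6%, and at 1.05 without day 1 replicate 1 and 0.324 without replicate 2. In cluster 2 there were 28 UMIs, or 0.154 CPM against 2.57 in ATV:RSV. Of the 8 ATV:RSV UMIs in cluster 2, 1 remained when cells with markers of another type were left out, and the ratio then had an interval of 6.08% to 1532%.

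**Figure D3:**
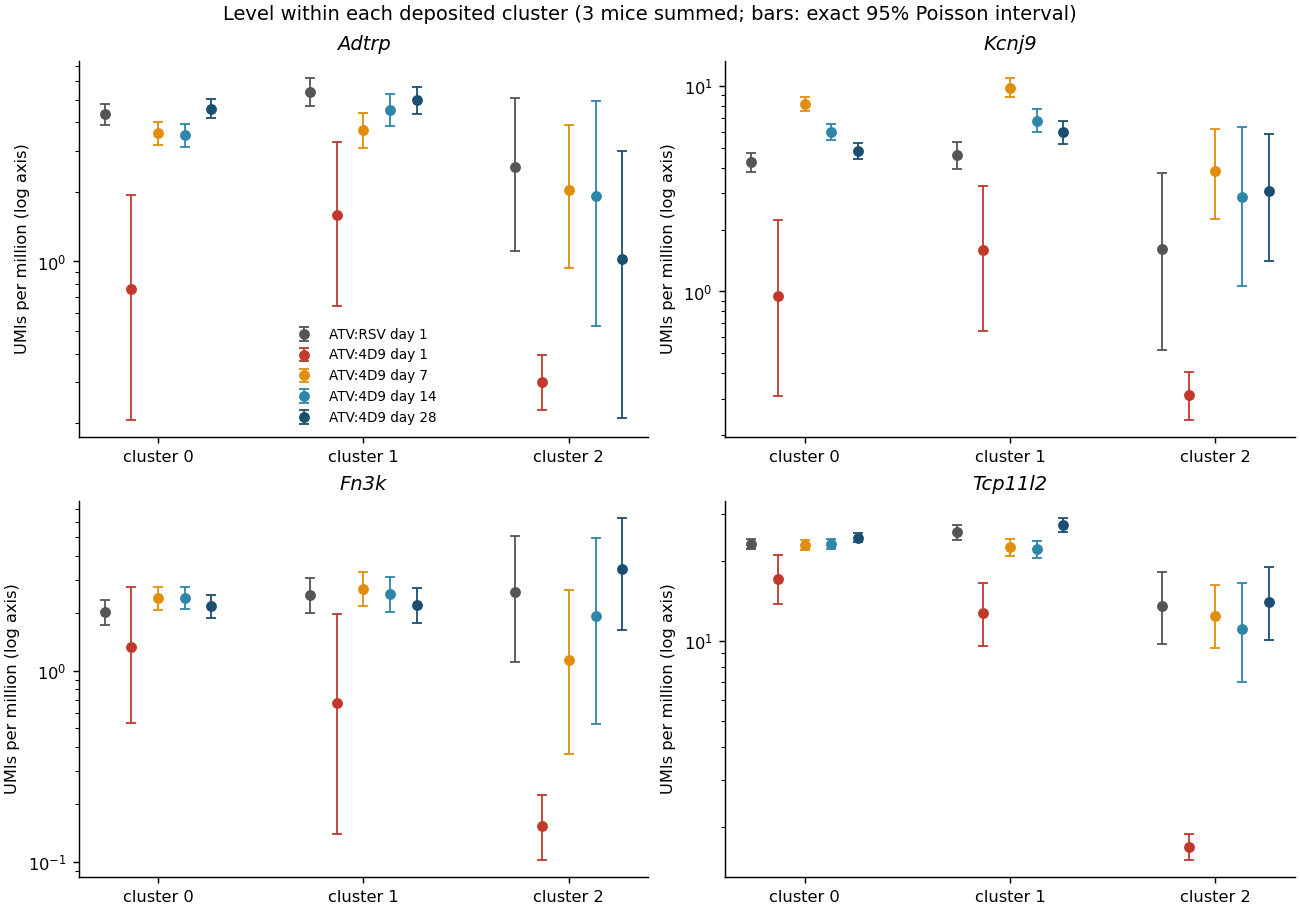
Level in CPM of the UMIs within deposited clusters 0, 1 and 2 (horizontal axis), without TMM scaling, on a log vertical axis, with the UMIs of 3 mice of a group summed and bars for the exact 95% Poisson interval, which covers counting error only. For Tcp11l2 the day 1 level is 17.1 in cluster 0, 12.7 in cluster 1 and 1.69 in cluster 2.

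Day 1 cells with a UMI of the proliferation genes Mki67 or Top2a were set beside the other day 1 cells. At matched depth Tcp11l2 was in 0.289% to 0.453% of these cells per mouse (18 of 4810 cells). In the others it was in 0.819% to 1.52% (167 of 14672). The first set lay almost wholly in cluster 2 (99.5% of its cells, against 89.9% of the others), where Tcp11l2 was lowest. Within cluster 2 alone, a split chosen after the values were seen, Tcp11l2 was in 0.290% to 0.405% of the first set (17 of 4788 cells). In the others it was in 0.513% to 1.16% (94 of 13183), so the ranges lay closer together. The same splits were not made for all genes, so nothing particular to Tcp11l2 is read from them. For Adtrp, Kcnj9 and Fn3k the cycling cells with a UMI numbered 5, 4 and 2, which are too few to compare.

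The transcripts were seldom seen in the same cell. Of the thinned cells outside day 1, 64120 held none of the 4, 7959 held 1, 274 held 2, 4 held 3 and 0 held all 4. Tcp11l2 was in a median of 9.10% of Kcnj9-positive cells per mouse and 7.66% of the rest, higher in 10 of 12 mice, and in 8.01% of Adtrp-positive cells and 7.66% of the rest, higher in 6 of 12. It was in 6.35% of Fn3k-positive cells and 7.69% of the rest, higher in 5 of 12. Kcnj9 was in 2.09% of Adtrp-positive cells and 1.89% of the rest, higher in 7 of 12. Fn3k was in a median of 0% of Adtrp-positive cells against 0.769% of the rest, higher in 1 of 12, with 2 cells holding both. For Kcnj9-positive cells the median was 0% against 0.778%, higher in 4 of 12, with 10 cells holding both. Each of these mice had 46 to 117 Adtrp-positive and 72 to 204 Kcnj9-positive thinned cells. With so few cells and so rare a transcript, a median of 0% lies near the floor and does not show that the genes occur apart.

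Cells with markers of other types carried some of the transcripts. Over all mice, Fn3k was in 8 of 20 cells with red blood cell markers and 4 of 10 with choroid plexus markers, against 1.14% of cells with no such markers. Without the ATV:4D9 day 1 mice these were 6 of 16, 4 of 9 and 1.38%. The 5 red blood cell markers summed to 9.67 to 388 CPM in ATV:RSV mice and 1.93 to 33.3 at day 1. Each of these markers had UMIs in both groups. At days 7, 14 and 28 their sum was 0.651 to 131, 11.8 to 32.5 and 0.358 to 130 CPM. Fn3k, with TMM scaling, averaged 2.07 CPM in ATV:RSV and 2.47, 2.39 and 2.11 CPM at those days. Without cells bearing markers of another type the Fn3k log2 fold change at day 1 was -3.22, against -3.17 with them. Over all mice, Kcnj9 was in 26 of 453 cells with border-associated macrophage markers, 53 of 965 with oligodendrocyte markers, 15 of 334 with astrocyte markers and 4 of 56 with neuron markers. It was in 2.78% of cells with no markers of another type. Without the ATV:4D9 day 1 mice these were 25 of 244, 51 of 786, 15 of 254 and 4 of 53, and 3.39%. Tcp11l2 and Adtrp were in 16.7% and 3.14% of cells with markers of any other type, against 11.1% and 2.03% of cells with none, over all mice. Without the ATV:4D9 day 1 mice these were 21.6% and 4.06%, against 13.4% and 2.46%. Cells with markers of any other type were deeper, at a median of 10951 UMIs against 5810 over all mice. The 7 neuron markers summed to 10.2 to 13.9 CPM in ATV:RSV and 5.13 to 7.04 at day 1, each with UMIs in both groups and 6 of 7 called lower, against 34.6% of all genes. At day 7 the neuron markers summed to 7.03 to 7.95 CPM, when Kcnj9 was above ATV:RSV. Between ATV:RSV and day 1 markers of other types differed as well, each with UMIs in both groups. The 6 astrocyte markers summed to 221 to 271 CPM in ATV:RSV and 116 to 121 at day 1 (1 called lower), the 6 oligodendrocyte markers to 88.2 to 107 and 66.1 to 73.1 (5 lower, 1 higher), and the 5 endothelial markers to 23.1 to 29.9 and 14.4 to 19.0 (1 lower, 2 higher). The 7 border-associated macrophage markers summed to 17.2 to 20.6 and 18.0 to 26.0 (3 called higher, against 34.7% of all genes). The 6 monocyte markers summed to 4.90 to 12.9 and 14.2 to 18.8 (2 of 5 tested called higher, 1 lower), and the 4 oligodendrocyte precursor markers to 0.641 to 1.23 and 1.20 to 1.71 (2 of 3 tested called higher). Without cells bearing markers of another type the Kcnj9 log2 fold change at day 1 was -3.40, against -3.37 with them. The 2, 8 and 5 cells with monocyte, neutrophil or T and NK cell markers (median 13553.5 to 17584 UMIs, against 5810 in cells with no such markers) held none of the 4 transcripts, and are too few to set a background share. The part of free RNA from other cells in these values was not tested.

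The later days are given gene by gene, as no test compared the 4 genes with one another. Against ATV:RSV the fitted log2 fold changes at days 7, 14 and 28 were -0.30 (SE 0.164), -0.23 (SE 0.157) and 0.02 (SE 0.148) for Adtrp. For Tcp11l2 they were 0.01 (SE 0.0811), -0.01 (SE 0.0799) and 0.10 (SE 0.0779), and its day 28 mice, at 23.2, 25.2 and 23.9 CPM, all lay above the ATV:RSV mice, as did those of 4.59% of all genes. For Fn3k they were 0.27 (SE 0.167), 0.22 (SE 0.164) and 0.04 (SE 0.165). These share the ATV:RSV mice that chose the genes and were not tested. For Kcnj9, equally untested, they were 1.08 (SE 0.153), 0.57 (SE 0.158) and 0.27 (SE 0.161).

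Kcnj9 had 335, 244 and 432 UMIs at day 7, 323, 247 and 230 at day 14, and 305, 213 and 210 at day 28. In CPM these were 9.48, 7.58 and 8.56 at day 7, 6.53, 6.54 and 5.06 at day 14, and 5.93, 4.47 and 4.28 at day 28. All 3 day 7 mice lay above all mice of every other group, as was true of 1.33% of all genes tested. The choice had already placed the day 1 mice below the ATV:RSV mice, so lying above the day 1 mice added little. The share over all genes carries no such condition.

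The days after day 1 did not enter the choice of the genes, so they were tested against each other with limma-voom over all genes. Kcnj9 fell between day 7 and day 28, by -0.81 on the log2 scale (SE 0.142, adjusted p = 0.00441 by limma-voom), when 2.13% of genes were called in that comparison. The difference was -0.67, -0.76 and -0.99 on the log2 CPM scale in batches 1, 2 and 3, lower in 3 of 3 batches. With the batch as a block the comparison called 488 genes in place of 304, and Kcnj9 had an adjusted p of 0.000415. From day 7 to day 14 Kcnj9 changed by -0.51 (SE 0.139) without passing the test (adjusted p = 0.1505), and 0.912% of genes were called. With the batch as a block the same change was -0.53 with an adjusted p of 0.0212. From day 14 to day 28 Kcnj9 changed by -0.30 (SE 0.148, adjusted p = 1.00), in a comparison where limma-voom called 0% of genes.

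In that last comparison 338 of 14260 genes had an unadjusted limma-voom p under the 0.05 threshold, a share below that threshold itself. There edgeR called 0 genes and DESeq2 called 70. None of the other 3 genes passed the limma-voom test between later days. From day 7 to day 28 the log2 fold changes were 0.32 (SE 0.1605, adjusted p = 0.477) for Adtrp, -0.23 (SE 0.162, adjusted p = 0.657) for Fn3k and 0.09 (SE 0.0794, adjusted p = 0.742) for Tcp11l2. Adtrp had 118, 92 and 213 UMIs at day 7, 165, 154 and 170 at day 14, and 192, 212 and 252 at day 28. Its day 7 and day 28 mice overlapped in CPM. Within batches 1, 2 and 3 it was higher at day 28 than at day 7 by 0.16, 0.63 and 0.28 on the log2 CPM scale. With the batch as a block this change did not pass the limma-voom test (adjusted p = 0.171).

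At matched UMIs per cell the share of Kcnj9-positive cells was 2.73%, 2.48% and 2.89% at day 7, 2.00%, 2.15% and 1.79% at day 14, and 2.14%, 1.42% and 1.303% at day 28. An exact two-sided permutation of days 7, 14 and 28 within batches (smallest possible p 0.0278) gave p = 0.0556, or 0.167 adjusted over the 4 genes. After adjustment over 4 genes, a single gene at that smallest p would not pass, so the adjusted value is no measure of stability. For Tcp11l2 the mean shares were 7.23%, 7.26% and 8.34% (exact permutation p = 0.0833, adjusted 0.167). For Adtrp they were 1.18%, 1.27% and 1.53% (exact permutation p = 0.250) and for Fn3k 0.703%, 0.792% and 0.772% (exact permutation p = 0.194), with an adjusted p of 0.250 for both.

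In clusters 0 and 1 Kcnj9 followed the same order of days. In cluster 0 it was at 4.24 CPM in ATV:RSV, 8.17 at day 7, 5.98 at day 14 and 4.83 at day 28, and in cluster 1 at 4.61, 9.82, 6.78 and 5.95. In cluster 2, with 247 to 512 cells per group outside day 1, it was at 1.61 CPM in ATV:RSV (5 UMIs), 3.86 at day 7 (17 UMIs), 2.89 at day 14 (6 UMIs) and 3.08 at day 28 (9 UMIs), so that day 28 lay above day 14 there, with overlapping counting intervals.

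The nearest tested gene above Kcnj9 on chromosome 1 was Kcnj10, 11891 bases away on the opposite strand, which encodes the inward rectifier Kir4.1 and is best known from astrocytes. It was not called at day 1, when its CPM was 3.17 ± 0.298 against 2.78 ± 0.432 (log2 fold change 0.18, SE 0.204, adjusted p = 0.434). At day 7 it was at 5.33 ± 1.48 CPM, called higher than ATV:RSV by 0.84 on the log2 scale (SE 0.200, adjusted p = 0.0253 by limma-voom) and higher in 3 of 3 batches, in a comparison where 3.98% of genes were called. The call was lost in 6 of 16 alternatives, among them without ATV:RSV replicate 2 (0.86, adjusted p = 0.0806) or 3 (0.72, adjusted p = 0.103) and without ATV:4D9 day 7 replicate 1 (0.75, adjusted p = 0.0807) or 2 (0.68, adjusted p = 0.0840). Its change from day 7 to day 28 was -0.58 (SE 0.186) and did not pass the test (adjusted p = 0.167). The other nearest tested genes beside the 4 genes were not called at day 7 against ATV:RSV (adjusted p 0.217 to 0.944 by limma-voom). The summed level of 6 astrocyte markers was 221 to 271 CPM in ATV:RSV, 116 to 121 at day 1 and 190 to 248 at day 7, and their part in the Kcnj10 level was not tested.

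**Figure D4:**
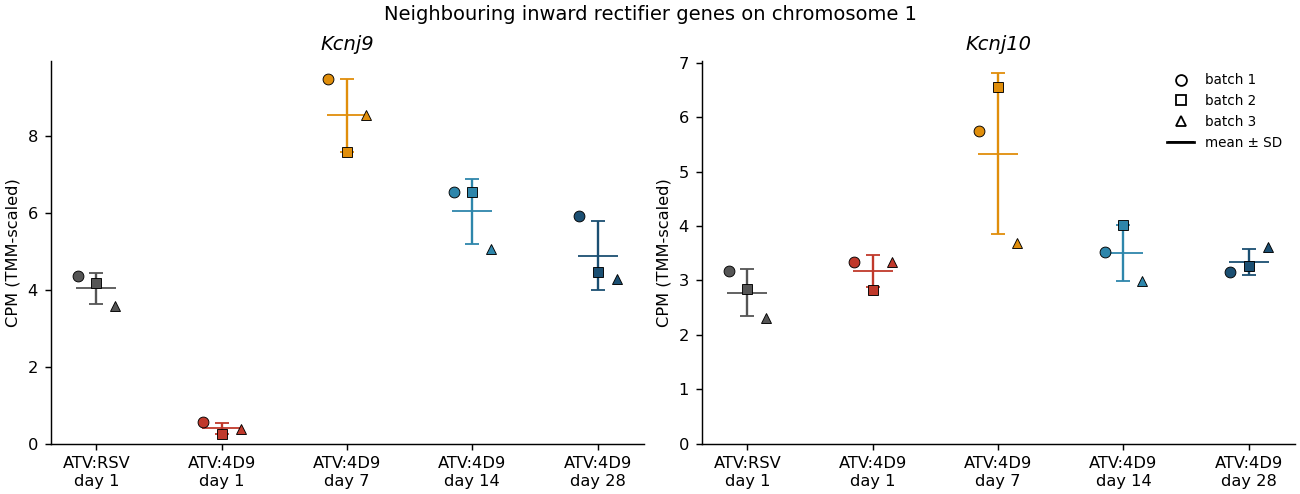
CPM of Kcnj9 and of its chromosome 1 neighbour Kcnj10 (vertical axes, from 0) in each mouse by group, with batch symbols and mean ± SD over 3 mice. Kcnj9 drops to 0.261 to 0.550 at day 1 and reaches 7.58 to 9.48 at day 7, while Kcnj10 stays at 2.83 to 3.35 at day 1 and reaches 3.69 to 6.56 at day 7.

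The other neighbours went either way at day 1. On the other side of Kcnj9, Igsf8 rose from 43.6 ± 0.253 to 60.4 ± 3.88 CPM (log2 fold change 0.47). Beside Fn3k, Fn3krp, its paralog with a related kinase activity, fell from 1.49 ± 0.138 to 1.07 ± 0.152 CPM (-0.47, SE 0.184, adjusted p = 0.0321), and Tbcd, a tubulin folding cofactor, rose from 7.81 ± 0.516 to 13.5 ± 1.68 CPM (0.80). Around Tcp11l2, Ckap4 rose (0.38) and the noncoding Gm17249 fell (-0.73). Around Adtrp, Tmem170b fell (-0.69) and the noncoding Gm10790, 18230 bases away, fell from 68.1 ± 7.75 to 17.8 ± 0.899 CPM (-1.93).

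Of the genes with functions related to the 4, 46 were called lower and 35 higher at day 1. Over all genes tested, 34.6% were called lower and 34.7% higher, with a median log2 fold change of -0.05. When libraries were scaled by their size alone that median was -0.29 and the split was 6959 lower to 3690 higher, so the counts that follow are relative to TMM scaling. Each related gene named as risen or fallen had an adjusted p of at most 0.0321 by limma-voom.

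Of 18 lipid ester hydrolases tested, 9 fell, 4 rose and 5 did not pass, with a median log2 fold change of -0.26. Abhd3 fell to 2.41 ± 0.285 from 5.82 ± 0.479 CPM, and Mgll and Lipe, which break down monoacylglycerols and stored triglyceride products, changed by -0.97 and -0.94. Lpl, lipoprotein lipase, rose from 11.3 ± 3.35 to 221 ± 37.8 CPM (4.35, SE 0.226). Aig1, the paralog of Adtrp with the same enzymatic activity, was at 38.8 ± 2.89 and 36.5 ± 0.566 CPM and was not called (-0.09, SE 0.0665, adjusted p = 0.256).

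Of 9 genes tested in the list for the tissue factor pathway and plasminogen system, 6 rose and 3 did not pass, with a median of 0.77. The list and the 6 include Cd9, a membrane tetraspanin that is not a component of either system. The plasminogen activator receptor Plaur rose from 17.7 ± 3.00 to 73.9 ± 18.0 CPM (2.04), Cd9 changed by 1.09 and the urokinase gene Plau by 0.99. Tfpi itself, named because the full name of Adtrp refers to it, rose at day 1 (0.75) and was below ATV:RSV at day 7 (-0.47, adjusted p = 0.00259). With library size alone 5 rose and 1 fell.

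Among inward rectifier potassium channels only 5 of 14 genes had counts to test, and the GIRK partners Kcnj3, Kcnj5 and Kcnj6, with which Kcnj9 forms channels, gave 74, 0 and 9 UMIs over all 15 mice. Kcnj16 fell, with 18, 26 and 26 UMIs in ATV:RSV and 3, 2 and 2 at day 1, which was 6.53% of the ATV:RSV level (exact interval 2.53 to 14.2, counting error only). Kcnj2 rose from 10.1 ± 1.39 to 14.9 ± 1.21 CPM (0.55) but was not called with library size alone. Of these 5 channels, 2 were called higher without ATV:4D9 day 1 replicate 2, and 2 were called lower without ATV:RSV replicate 1 or without ATV:4D9 day 1 replicate 1 or 3. Of 10 other potassium channel genes 5 fell and 4 rose. Kcnk12, a background potassium channel, fell from 45.0 ± 3.78 to 16.6 ± 0.213 CPM (-1.44), Kcnn4 rose from 3.36 ± 0.359 to 8.52 ± 0.901 CPM (1.33), and Kcna3 (2.23) and Kcna2 (-1.68) changed at 20 UMIs or fewer per mouse in ATV:RSV.

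Genes listed as acting upstream of GIRK channels were split. Of 23 G protein subunit and RGS genes tested 12 fell and 5 rose, with a median of -0.17, and 3 rose with library size alone. Rgs2 fell from 650 ± 51.6 to 330 ± 34.2 CPM (-0.98), Gng7 and Rgs1 changed by -0.90 and -0.88, and Gng5 rose from 443 ± 24.8 to 849 ± 39.3 CPM (0.94). Of 23 genes tested in the list of Gi-coupled receptors 11 fell and 7 rose, with a median of -0.51. The list also holds atypical chemokine receptors that do not signal through G proteins, so not all of its genes act upstream of GIRK channels. Gpr84, a receptor for medium-chain fatty acids, rose from 195 ± 8.71 to 1157 ± 157 CPM (2.56) and Hcar2, the niacin receptor, changed by 2.25. P2ry14 rose from 1 to 8 UMIs per mouse to 55 to 76 UMIs, and the chemokine receptor Cxcr3 fell from 1.58 ± 0.178 to 0.353 ± 0.129 CPM (-2.19).

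Of 16 genes of glycation repair and polyol metabolism tested 8 fell and 7 rose, with a median of -0.07. The number that fell was 3 to 5 in 10 of the alternatives, among them 5, 4 and 4 without ATV:RSV replicate 1, 2 or 3, 5 and 3 without ATV:4D9 day 1 replicate 1 or 2, and 5 with DESeq2 size factors. Park7 rose from 204 ± 13.2 to 471 ± 29.4 CPM (1.21), the aldose reductase gene Akr1b3 changed by 0.82 and Akr1a1 by 0.57, while Ager, the receptor for advanced glycation end products, fell from 1.11 ± 0.198 to 0.599 ± 0.0823 CPM (-0.89). In the TCP11 family, Tcp11l1 rose from 7.36 ± 0.588 to 13.1 ± 1.74 CPM (0.83, SE 0.101, adjusted p = 2.1e-06), and Tcp11 had 39 UMIs in all mice and was not tested.

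**Figure D5:**
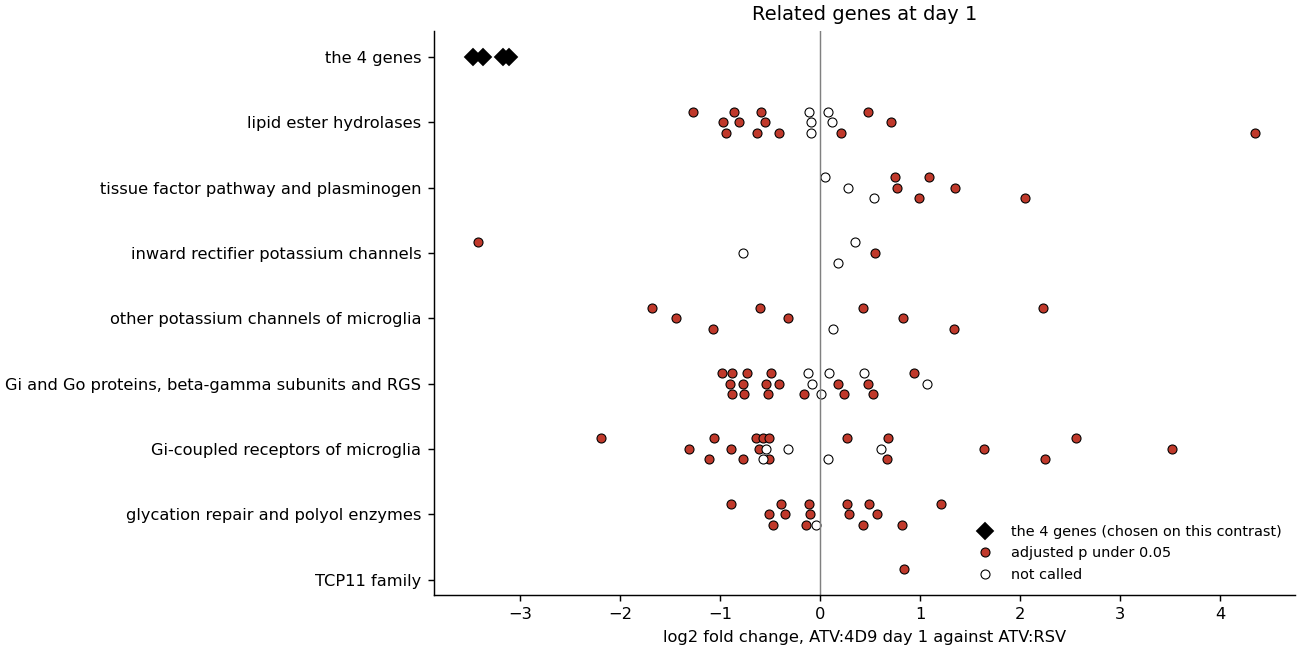
Log2 fold change at ATV:4D9 day 1 against ATV:RSV (horizontal axis) of the 4 genes (black diamonds) and of each tested gene in 8 lists of related genes (rows), with filled circles for an adjusted p under 0.05 and open circles for genes not called. The 4 genes were chosen on this axis and lie at -3.47 to -3.11, where Kcnj16 at -3.42 is the one related gene beside them.

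The genes whose log2 CPM followed each of the 4 most closely over 15 mice all had a negative day 1 log2 fold change. With 11478 genes compared at a mean of at least 1 CPM, the highest Pearson r was 0.992 with Garnl3, Agmo and Slc9a9 for Adtrp, 0.992 with Pnpla7 for Kcnj9 (then Trim12a and Csf3r), 0.993 with Ephx1 for Fn3k (then Tnfsf12 and Map1lc3a) and 0.996 with Adgrg1 for Tcp11l2 (then Phf1 and Tbc1d17). These values include the day 1 mice, are a description, and rest on points that share library and depth. The 4 genes were chosen for their day 1 fall, so a fall in the genes most like them largely follows from that choice. Over the 12 other mice, Kcnj9 was most like Rps19 (r = 0.972), Zfp652os and Ptms, Adtrp most like Igf2bp3 (0.941), Sash1 and Slc16a7, Fn3k most like Cyp4f16 (0.890), Gm2a and Sptbn1, and Tcp11l2 most like Btg3 (0.872), Rtn4rl1 and Abcc4. Among the 4 genes r over 15 mice, which hold the fall that chose them, was 0.923 to 0.984. Over the 12 mice outside day 1 it was -0.67 for Adtrp with Kcnj9 and 0.54 for Kcnj9 with Fn3k. Rps19, a ribosomal protein gene, was at 1163 CPM in ATV:RSV, 2550 at day 1 and 1702 at day 7, so unlike Kcnj9 it was higher at day 1.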

How the data were processed

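Microglia of 15 male mice in 5 groups of 3 were profiled by single-cell 3′ RNA sequencing. The authors mapped reads to mm10 with Cell Ranger (the sources used here differ on its version), filtered cells and clustered them with Seurat. The deposited files hold raw UMI counts of 32372 genes in 102043 cells, with the cluster and mouse of each cell and the percent of its UMIs from mitochondrial genes. Medians of that percent were 3.11 to 3.38 in ATV:RSV mice and 3.96 to 4.50 at ATV:4D9 day 1. How doublets were treated is not given in the sources used here, and an alternative dropped, per mouse, the top 5% of cells by UMIs. There were 0 columns of unmapped samples.

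UMI counts were summed per mouse, filtered with filterByExpr (minimum count 10, minimum total 15), scaled by TMM and fitted with limma-voom (R 4.3.3, limma 3.58.1, edgeR 4.0.16) with a mean per group over 15 mice. P-values were adjusted by Benjamini-Hochberg over 14260 genes and called under 0.05. Sequenced depth was 32341960 to 70307384 UMIs per mouse. For shares, each cell was thinned to 3385 UMIs, the 10th percentile, which left out 10204 shallower cells, 3.93% to 17.8% of a mouse. Intervals cover counting error only. Likeness used log2 CPM with a prior count of 2.

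The labels state that each batch held all conditions, so the batch number pairs mice across groups. Deviations from group means correlated at 0.0539 on average over 30 same-batch pairs and -0.0267 over 60 others. No 2 replicates were copies (chi-square per degree of freedom at least 10.6). Tested on simulated data, the fit recovered most of the genes changed there. Alternatives changed the scaling, filter, test (edgeR quasi-likelihood, DESeq2 1.42.0), block, mice, cells and depth.

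The genes and lists were chosen with earlier results of these data known. Named besides the 4 genes were the next genes in the day 1 order, up to 4 genes per list with the largest called day 1 change, the paralogs, the nearest tested gene on each side and the 3 genes of most like pattern. One listed gene that this rule names is counted with its list but is not reported here. Tfpi, Rps19 levels and Kcnj3, Kcnj5, Kcnj6 and Tcp11 counts were added after their values were seen. Among the neighbours, later-day levels are given for Kcnj10 alone, a choice outside this rule. Symbols were matched to GENCODE M21 for 31506 of 32372 genes. Promoters came from RefSeq (GRCm38.p6), with an entry for 3 of the 4 genes and none read for Fn3k.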

Additional observations from a re-analysis of the deposited data

Results flagged for a closer look

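Kcnj9 differed between 2 times after the same antibody by a direct test. Its log2 fold change from ATV:4D9 day 7 to day 28 was -0.81, with CPM of 7.58 to 9.48 at day 7 and 4.28 to 5.93 at day 28, lower in 3 of 3 batches. The adjusted p was 0.00441 by limma-voom and 8.45e-05 to 0.0357 over 16 alternatives. These alternatives include leaving out each day 7 and each day 28 mouse in turn. No separate test for single far samples was made in groups of 3 mice.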

How the results depend on the processing

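Counts were few for Fn3k, with 38 UMIs in all from the day 1 mice and 10 of them outside cluster 2. The fall of Kcnj9 from day 7 to day 28 passed in all 16 alternatives, at -0.96 to -0.72. Of 188 alternatives for the 4 genes between later days, 187 stayed on the same side of the threshold. With the batch as a replicate block, Kcnj9 from day 7 to day 14 passed the test at -0.53, 488 genes were called from day 7 to day 28 in place of 304, and 19 from day 14 to day 28 in place of 0. The block changed no other call of the 4 genes. From day 7 to day 14, 130 genes were called, 86 with library size alone, 241 with DESeq2, and 31 to 81 when each mouse was left out. From day 7 to day 28, DESeq2 called 465 genes and leaving out each mouse gave 162 to 237, with 200 without ATV:4D9 day 7 replicate 3 and 162 without day 28 replicate 2. From day 14 to day 28, 13 genes were called with no filter on low counts and 70 with DESeq2, which gave 713 genes an adjusted p.

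The genes were chosen for a fall at day 1, so the negative sign there was set by the choice and only the size is given. Over 17 alternatives the day 1 log2 fold changes were -3.70 to -3.13 for Adtrp and -3.65 to -2.97 for Kcnj9. They were -3.40 to -2.81 for Fn3k and -3.35 to -2.72 for Tcp11l2. Adtrp was -3.70 with library size alone, -3.20 with thinned cells and -3.13 in UMIs per cell. In UMIs per cell, Kcnj9 was -2.97, Fn3k -2.85 and Tcp11l2 -2.72, and Fn3k was -2.81 with thinned cells. The log2 ratio of thinned shares was -3.89 for Adtrp, -3.67 for Kcnj9 and -3.79 for Fn3k at 5000 UMIs, against -3.41, -3.30 and -3.16 at 3385 UMIs. In cluster 2 the Fn3k log2 ratio was -4.06, and -1.42 without cells bearing markers of another type, where 1 ATV:RSV UMI was left. Of 288 alternatives for the lists, 19 moved a count by more than 1.5 times. The causes of these shifts were not tested.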
